A study of Mus musculus with 15 samples.

Results

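The chemokine ligands measured here were the mouse genes whose symbols begin with Ccl, Cxcl, Cx3cl or Xcl followed by a number and at most 1 letter. Symbols were assigned to the array's probes through the transcript accessions printed in the scanner files. Of 40 such genes, 36 had a matched probe, out of 19752 named genes on the array, and 30 passed the filter on dim probes, among 28074 genes and unnamed transcripts tested. The tissue was mammary tumour of female MMTV-PyMT mice, in which the mouse mammary tumour virus promoter drives the polyoma middle T oncogene mainly in mammary epithelium. The T0 group held 4 tumours described as taken before any treatment, and 3 groups were taken at the end of treatment. Of those, 3 tumours had received vehicle, 4 had received B20 (B20-4.1.1, an antibody against VEGF-A, intraperitoneally at 5 mg/kg, 2 times per week) and 4 had received nintedanib (a kinase inhibitor of VEGF, PDGF and FGF receptors, by oral gavage at 85 mg/kg per day). Treatment began at 7 weeks of age, and the age at T0, the length of treatment and the vehicle's composition are not given in the sources used here. The design text states that expression induced by the treatments was measured. The labels do not say whether the tumours of a group came from separate mice, and a p-value here therefore reflects the variation among the hybridised samples, which may be technical.

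Chemokines are small secreted proteins that guide cells along gradients by binding G protein-coupled receptors. CC and CXC chemokines are named for the spacing of their first cysteines, and many ligands share a receptor. In mammary tumours, CCR2 ligands are known for attracting monocytes, CXCR2 ligands for attracting neutrophils, CXCR3 ligands for attracting activated T and NK cells, and CXCL12, made by stromal cells, for retaining CXCR4-bearing cells.

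Each of the 15 arrays hybridised the RNA of 1 tumour sample. Levels are log2 signals relative to the array's own 75th percentile, so a negative level is a signal under that percentile, and levels of different genes cannot be ranked. Between 53.5% and 84.2% of probes were well above background, with T0 replicate 3 the highest and the other arrays at 68.1% or less. Of the ligands tested, 25 were well above background on all 15 arrays. The 10 repeat spots of Ccl2 had a standard deviation of 0.05 to 0.12 within an array, against 0.96 between arrays of a group, or 0.49 without T0 replicate 4. The end-of-treatment arrays lay on 2 slides that both held all 3 of those groups. The slide of 3 arrays held 1 array per group. Its differences, given second where values within slides are paired, are therefore 1 array minus 1 array. T0 arrays lay on 2 other slides, scanned at another time with another version of the extraction protocol, so slide, scan and the change from T0 cannot be told apart. T0 replicate 4 carries the labels vehicle and before any treatment together and was kept in T0 by its title. Markers of luminal epithelium, the tissue's own cell type, were at a summed level of 8.83 to 9.39 on every array, a sum carried by Krt18 at 8.16 to 8.74. Among these markers Esr1, the oestrogen receptor, fell from T0 in all 3 later groups, and Elf5 in the nintedanib group. RNA was from whole tumours, so fewer cells of a type and less RNA per cell cannot be told apart.

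The promoters of Cxcl10, Cxcl9 and Cxcl13 are shown because these ligands separated the nintedanib arrays from the vehicle arrays, and that of Cxcl1 because its end-of-treatment arrays lay above T0. They are RefSeq sequences of GRCm38.p6, from 250 bases before to 50 after the gene's start, read 5′ to 3′ on the gene's strand: chr5:92348840-92349139 (minus strand), chr5:92328030-92328329 (minus strand), chr5:95956689-95956988 (plus strand) and chr5:90890995-90891294 (plus strand). Capitals mark matches to a motif of interferon-stimulated response elements (ISRE: GAAA, any 2 bases, GAAA) or of NF-κB sites (κB: GGGA, any base, TT, any base, CC), searched on both strands.
Cxcl10: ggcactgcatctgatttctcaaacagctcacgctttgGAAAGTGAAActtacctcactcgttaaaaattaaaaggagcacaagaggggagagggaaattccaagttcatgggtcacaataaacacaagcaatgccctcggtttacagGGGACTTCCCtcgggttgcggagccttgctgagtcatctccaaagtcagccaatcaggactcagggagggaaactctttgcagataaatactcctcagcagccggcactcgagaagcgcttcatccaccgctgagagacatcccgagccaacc
Cxcl9: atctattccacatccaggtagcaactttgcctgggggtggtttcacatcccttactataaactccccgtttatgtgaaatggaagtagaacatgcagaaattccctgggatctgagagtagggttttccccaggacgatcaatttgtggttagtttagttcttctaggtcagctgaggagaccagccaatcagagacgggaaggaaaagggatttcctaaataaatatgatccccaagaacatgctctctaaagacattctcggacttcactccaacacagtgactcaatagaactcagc
Cxcl13: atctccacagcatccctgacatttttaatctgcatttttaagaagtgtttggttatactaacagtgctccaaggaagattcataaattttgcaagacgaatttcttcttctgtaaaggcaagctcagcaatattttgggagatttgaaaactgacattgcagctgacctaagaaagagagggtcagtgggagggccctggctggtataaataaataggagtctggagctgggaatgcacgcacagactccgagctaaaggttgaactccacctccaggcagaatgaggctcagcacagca
Cxcl1: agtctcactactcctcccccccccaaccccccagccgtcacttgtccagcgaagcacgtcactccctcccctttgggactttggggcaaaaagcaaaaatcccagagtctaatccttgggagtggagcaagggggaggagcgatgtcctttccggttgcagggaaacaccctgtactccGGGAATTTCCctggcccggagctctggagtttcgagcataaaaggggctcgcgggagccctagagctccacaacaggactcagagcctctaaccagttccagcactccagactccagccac
Cxcl10 held the ISRE match GAAAGTGAAA 213 bases before its start and the κB match GGGACTTCCC 103 bases before it. Cxcl1 held the κB match GGGAATTTCC 71 bases before its start, and its neighbours Cxcl2 and Cxcl3 held the same 10 letters 97 and 73 bases before theirs. Neither motif's letters stood in the Cxcl9 or Cxcl13 windows. The table had promoters for 28 of the 40 ligands. Among those, the ISRE motif matched in Ccl19, Cxcl10 and Cxcl14 (3.44% of all 32851 promoters), and the κB motif in Cxcl1, Cxcl2, Cxcl3 and Cxcl10 (1.2%). A match describes letters and does not show that a factor binds.

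On every nintedanib array the T cell attractants Cxcl9, Cxcl10 and Ccl5 lay above every vehicle array, as did Cxcl13, Ccl1, Ccl3, Ccl12 and Cxcl12. None of the 30 ligands passed the test, limma with Benjamini-Hochberg adjustment over all 28074 features, at an adjusted p under 0.05, and neither did any other feature (0% called). At an unadjusted p under 0.05, 8 ligands were higher and 1 lower with nintedanib, where 2.38% and 2.44% of all features were. The 4 nintedanib arrays lay above all 3 vehicle arrays for 8 ligands and below them for 1, where 3.21% and 4.14% of all features did so. Over all 30 ligands, 24 differences were above 0 with a median of 0.62, against a median of -0.009 over all features. On the slide of 8 arrays 24 of 30 were above 0, and on the slide of 3 arrays 21 were. Ccl1 and Cxcl13 would not have passed the filter on dim probes without the nintedanib arrays, so their place in these counts was set by the group where they are high. Over the other 28 ligands, 22 differences were above 0 with a median of 0.58, 6 were higher and 1 lower at an unadjusted p under 0.05, and 6 lay above vehicle on every nintedanib array and 1 below.

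With B20, no ligand and no other feature passed the same limma test (0% called). Differences from vehicle were above 0 for 25 of the 30 ligands with a median of 0.26, against 0.04 over all features. At an unadjusted p under 0.05, 6 were higher and 0 lower, where 1.79% and 1.45% of all features were. Ligands whose B20 arrays all lay above vehicle numbered 3 (Ccl4, Cxcl9 and Cxcl10), and 0 lay below, where 2.81% and 2.59% of all features did. The slide of 3 arrays had 17 of 30 above 0, with a median of 0.09, and the slide of 8 arrays had 25, with a median of 0.50. Without Ccl1 and Cxcl13, 4 of 28 were higher at an unadjusted p under 0.05. Both drugs are set against the same 3 vehicle arrays, so their differences share that group's error.

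**Figure D1:**
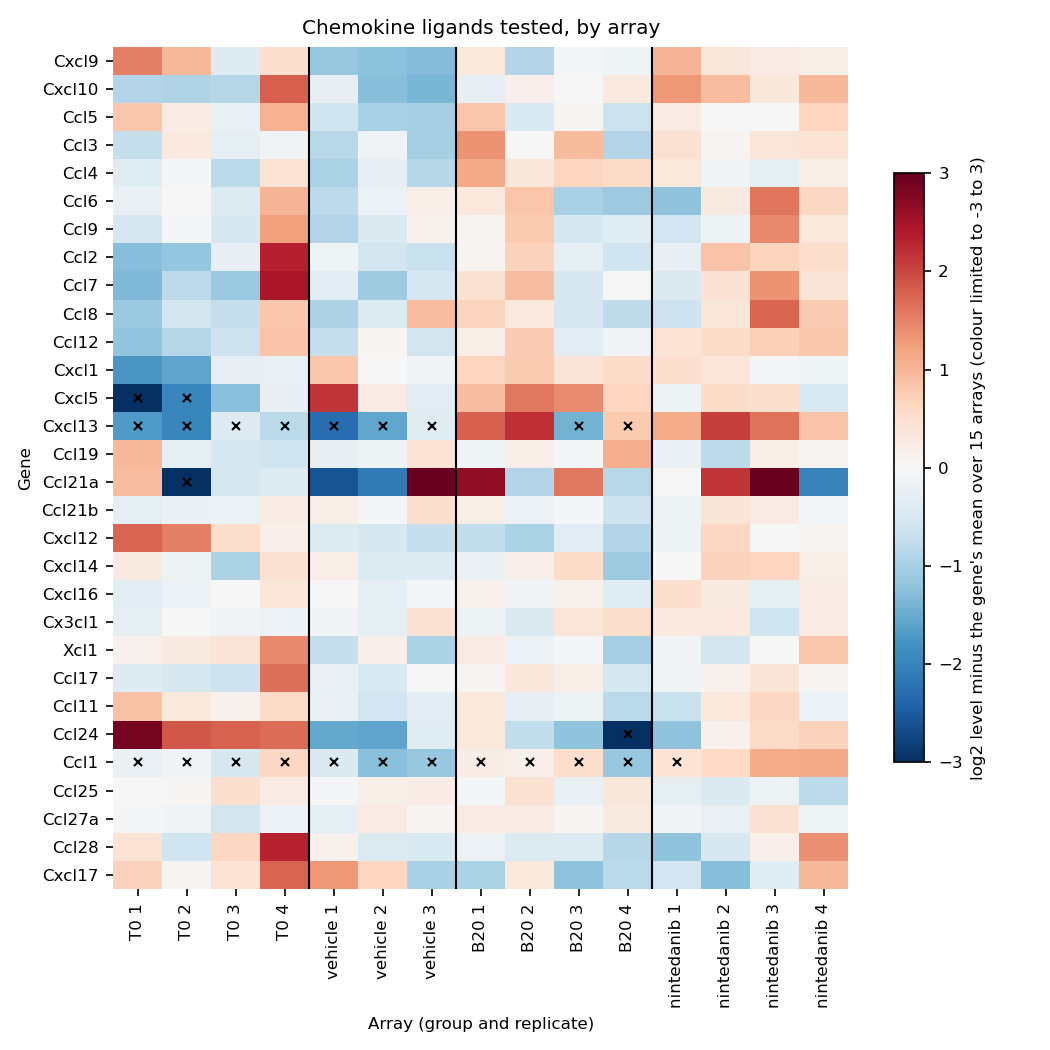
Log2 level of each of the 30 tested ligands (rows, grouped by receptor and role) on each of the 15 arrays (columns), minus the gene's mean over the arrays; red is above and blue below that mean, and a cross marks a probe not well above background. Cxcl9 is low on the vehicle arrays, and Ccl24 is low on the vehicle arrays and most B20 arrays. T0 replicate 4 is high for Ccl2, Ccl7 and Ccl17, and Ccl21a differs widely within every group.

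CXCL9 and CXCL10 are the interferon-inducible ligands of CXCR3, and the third, Cxcl11, had no matched probe. Cxcl9 levels on the vehicle arrays were -3.56, -3.65 and -3.72. The nintedanib arrays had -1.39, -2.08, -2.17 and -2.23, and the B20 arrays -2.10, -3.31, -2.46 and -2.54. Every array of both drugs lay above every vehicle array, while the 2 drugs overlapped. The difference for Cxcl9 was 1.67 ± 0.39 (log2, SE) for nintedanib, a 3.19-fold higher signal (adjusted p = 0.447 by limma), and 1.04 ± 0.39 for B20 (adjusted p = 0.999). Within the 2 slides the nintedanib difference was 1.72 and 1.49. A dimmer second probe of Cxcl9 gave 1.18 ± 0.29 for nintedanib and 0.33 ± 0.29 for B20.

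Cxcl10 was at -2.41, -3.43 and -3.54 with vehicle, at -2.41, -2.01, -2.17 and -1.87 with B20 and at -0.86, -1.25, -1.82 and -1.20 with nintedanib. The 3 groups did not overlap, although vehicle replicate 1 and B20 replicate 1 were nearly level. Nintedanib was 1.85 ± 0.55 above vehicle (adjusted p = 0.779 by limma; 1.61 and 2.34 within slides) and B20 was 1.01 ± 0.55 above it (adjusted p = 0.999). In T0, 3 arrays were between -3.08 and -3.03, and T0 replicate 4 was at -0.38. The summed level of both CXCR3 ligands was -2.63 to -1.87 with vehicle, -1.52 to -1.17 with B20, -0.98 to -0.10 with nintedanib and -1.91 to 0.05 in T0.

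These dim signals depend on how background is handled. With a normexp background correction and an offset of 50, which pulls low signals together, the nintedanib difference was 0.83 for Cxcl9 and 0.94 for Cxcl10, and in the authors' deposited table it was 0.82 and 0.95. The direction was the same and the size smaller.

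**Figure D2:**
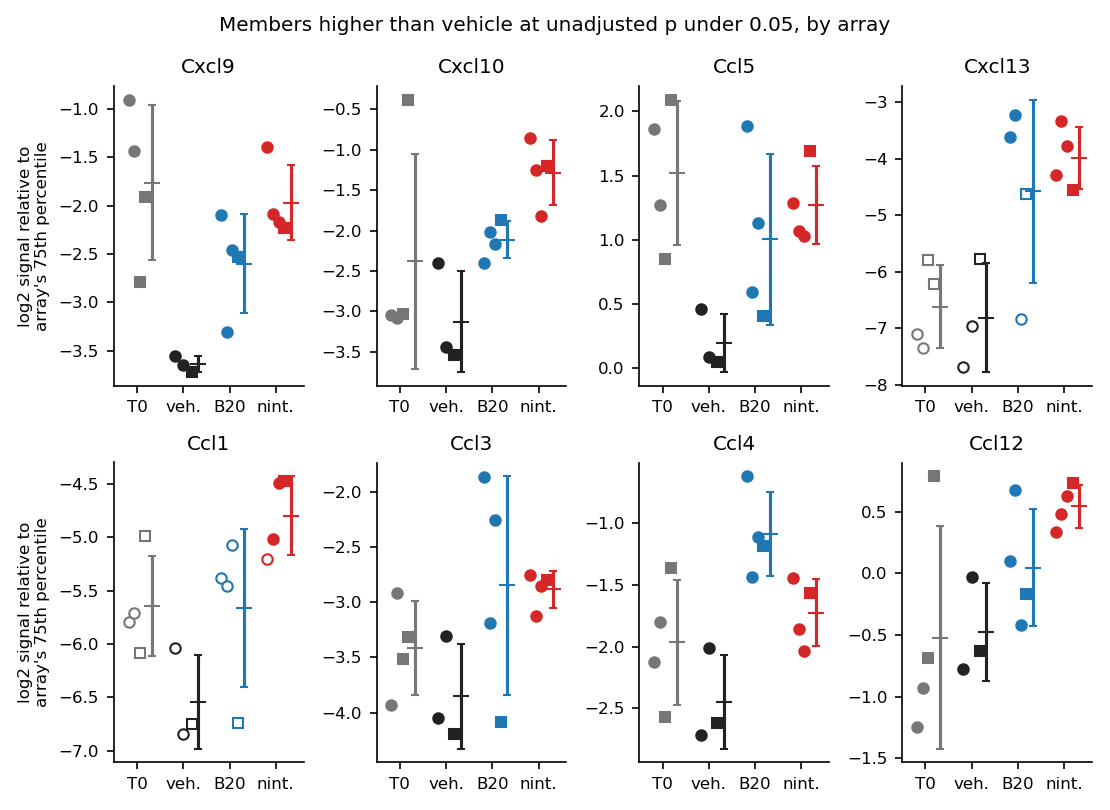
Levels of the 8 ligands that were higher with nintedanib than with vehicle at an unadjusted p under 0.05; each symbol is 1 array, open where the probe was not well above background, squares for slides 2 and 4 and circles for slides 1 and 3, with the group mean and SD as bars to the right (nint., nintedanib; veh., vehicle). The vehicle arrays (n = 3) lie below all 4 nintedanib arrays in every panel but that of Ccl4, where vehicle replicate 2 at -2.01 lies just above nintedanib replicate 3 at -2.04. Ccl1 and Cxcl13 passed the filter on dim probes only through the nintedanib arrays, so their panels are a description and not a test.

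CCL3, CCL4 and CCL5 attract T cells, NK cells and macrophages. Ccl5 was at 0.46, 0.09 and 0.05 with vehicle and at 1.29, 1.07, 1.03 and 1.69 with nintedanib. It was at 1.89, 0.59, 1.13 and 0.41 with B20, which overlapped vehicle through replicate 4. Its differences from vehicle were 1.07 ± 0.36 (adjusted p = 0.89 by limma) and 0.81 ± 0.36 (adjusted p = 0.999), and the nintedanib difference was 0.86 and 1.64 within slides.

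Ccl4 was the ligand with the lowest p in B20 against vehicle. Its levels were -2.71, -2.01 and -2.62 with vehicle and -0.62, -1.43, -1.11 and -1.18 with B20, with no overlap. The B20 difference was 1.36 ± 0.29, a 2.57-fold higher signal (adjusted p = 0.958 by limma), with 1.31 and 1.43 within slides. The nintedanib mean lay between, with arrays at -1.44, -1.86, -2.04 and -1.56 and a difference of 0.72 ± 0.29 from vehicle. Ccl4 was also among the 2 ligands for which all nintedanib arrays lay below all B20 arrays, by -0.64 ± 0.27 (adjusted p = 0.525 by limma).

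Ccl3, which lies beside Ccl4 in the genome, was at -4.05, -3.31 and -4.20 with vehicle, -1.87, -3.19, -2.26 and -4.08 with B20 and -2.75, -3.13, -2.85 and -2.80 with nintedanib. The 4 nintedanib arrays were close to each other and above vehicle, while the B20 arrays spread widely and overlapped both. The differences from vehicle were 0.97 ± 0.43 for nintedanib and 1.00 ± 0.43 for B20, with adjusted p values of 0.999 and 0.999 by limma. Within slides the nintedanib difference was 0.77 and 1.40.

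Cxcl13, a B cell attractant of lymphoid follicles that binds CXCR5, was well above background on 4 of 4 nintedanib arrays, 2 of 4 B20 arrays and on 0 of the 3 vehicle and 4 T0 arrays. Its levels were -4.28, -3.33, -3.78 and -4.55 with nintedanib and -3.61, -3.22, -6.83 and -4.62 with B20. The vehicle arrays, not well above background, read -7.69, -6.97 and -5.78. The probe needed the nintedanib arrays to pass the filter, so its comparisons with them are given as a description, with no test. For a probe not well above background on every array of a group, the fold depends on the base taken. Its base on each array is the dimmest signal that counted as well above background, or the probe itself where that was brighter. On that basis Cxcl13 was 6.94-fold higher with nintedanib than with vehicle. That fold is not a lower bound. The log2 difference was 0.47 with the normexp background correction and 0.50 in the authors' deposited table. On both slides every nintedanib array was well above background and no vehicle array was. No fold is given for B20, where replicates 3 and 4 were not well above background.

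Ccl1, a CCR8 ligand, was well above background on 3 of the 4 nintedanib arrays only, among all 15. It read -5.20, -5.02, -4.49 and -4.47 with nintedanib and -6.04, -6.85 and -6.75 with vehicle. By these readings it was 3.36-fold higher with nintedanib than with vehicle. That fold is not a lower bound, since the vehicle arrays and an array of the nintedanib group were not well above background. The log2 difference was 0.12 with the normexp background correction and 0.21 in the authors' deposited table. This comparison too is a description, since the 3 nintedanib arrays well above background alone brought the probe past the filter. They lay on both slides, and the B20 and vehicle arrays, all below background, give no fold.

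CCL2, CCL7, CCL8 and CCL12 attract monocytes, largely through CCR2. All 4 were above vehicle with each drug by their means, and 1 of them, Ccl12, by every nintedanib array. Ccl12 was at -0.77, -0.03 and -0.63 with vehicle and 0.34, 0.48, 0.63 and 0.74 with nintedanib, a difference of 1.02 ± 0.41 (adjusted p = 0.977 by limma) and of 0.88 and 1.37 within slides. The differences of Ccl2, Ccl7 and Ccl8 from vehicle ranged from 0.69 to 1.07 with nintedanib and from 0.06 to 0.86 with B20, with standard errors of 0.60 to 0.74. Groups overlapped for all 3. Ccl6 and Ccl9, CCR1 ligands of macrophages, differed from vehicle by 0.58 ± 0.62 and 0.65 ± 0.51 with nintedanib and by 0.03 ± 0.62 and 0.39 ± 0.51 with B20, all with overlap. Nintedanib replicate 3 was the highest nintedanib array for Ccl6 (4.39), Ccl7 (0.83), Ccl8 (5.34) and Ccl9 (3.90).

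**Figure D3:**
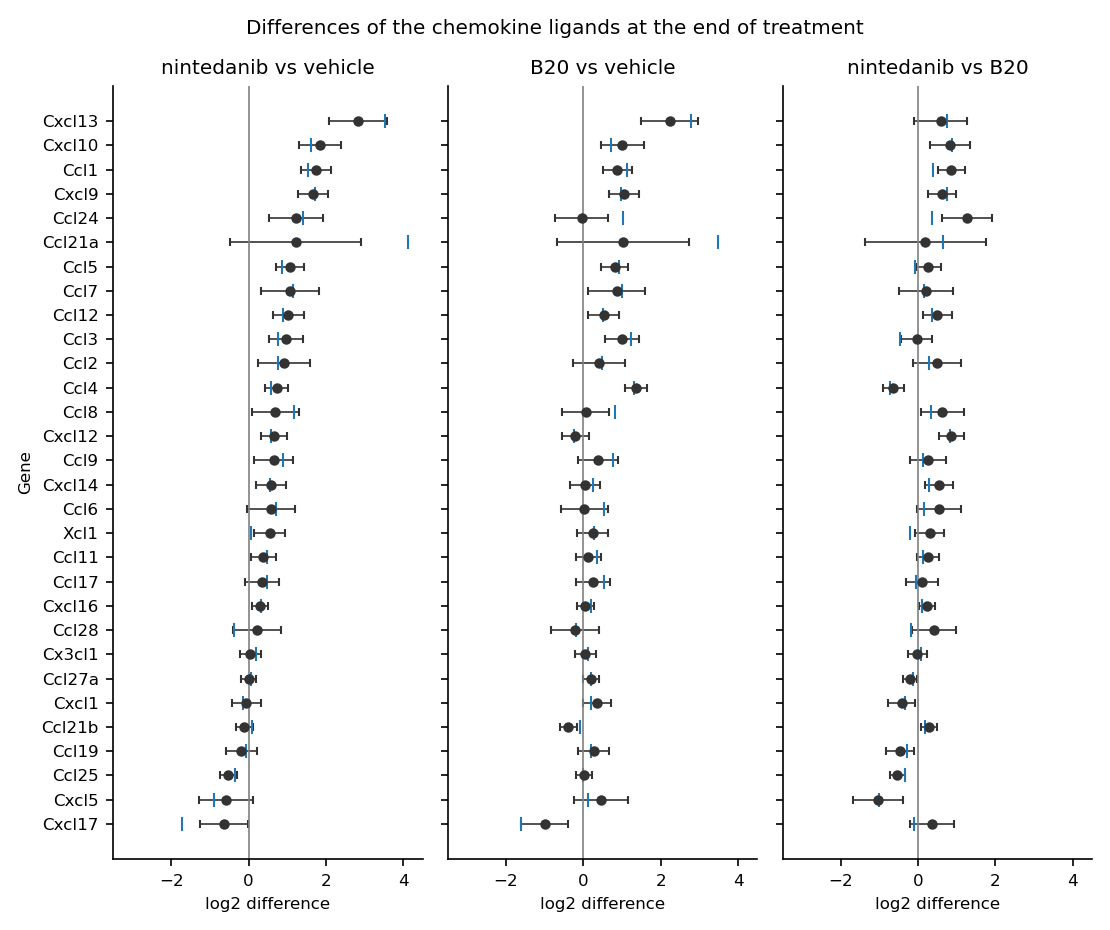
Differences of the 30 tested ligands (log2, points with SE bars) between the end-of-treatment groups, ordered by nintedanib against vehicle; blue ticks are the differences on the slide of 8 arrays alone. Most points lie right of 0 in both comparisons with vehicle, Cxcl13 is highest in both, and Ccl4 lies left of 0 between the drugs. Ccl1 and Cxcl13 passed the filter on dim probes only through the nintedanib arrays, and no vehicle array was well above background for either. Their points are therefore a description and not a test. With the normexp background correction the nintedanib difference of Cxcl13 from vehicle was 0.47.

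Between nintedanib and B20, 22 of 30 ligands had differences above 0 with a median of 0.27, against -0.04 over all features. None was called and no other feature was (0%). At an unadjusted p under 0.05, 2 were higher and 2 lower, or 1 and 2 without Ccl1 and Cxcl13, where 3.89% and 5.47% of all features were. Arrays of the 2 drugs did not overlap for 2 ligands that were higher with nintedanib, Cxcl12 and Cxcl10, and for 2 that were lower, Ccl4 and Cxcl5, where 2.12% and 3.62% of all features did not.

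Cxcl12, the stromal ligand of CXCR4, separated the drugs. It was at 0.97, 0.76, 1.37 and 0.85 with B20 and at 1.56, 2.35, 1.70 and 1.80 with nintedanib, and every nintedanib array was the higher. The difference was 0.86 ± 0.32, a 1.82-fold higher signal with a 95% interval of 0.18 to 1.55 in log2 (adjusted p = 0.518 by limma), and 0.83 and 0.95 within slides. Vehicle arrays were at 1.31, 1.25 and 1.03, below all nintedanib arrays. Nintedanib minus vehicle was 0.66 ± 0.34, and B20 minus vehicle was -0.21 ± 0.34. The second Cxcl12 probe, for another transcript, differed by 0.26 ± 0.24 between the drugs. Beside this, 7 of 9 endothelial markers were higher with nintedanib than with B20, with a median of 0.52, and 0 were called. Their part in the Cxcl12 difference was not tested.

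Ccl25, a CCR9 ligand of gut and thymus, was lower with nintedanib, at -0.12, -0.25, 0.03 and -0.62, than with vehicle, at 0.12, 0.33 and 0.38, and was the only ligand whose nintedanib arrays all lay below vehicle. The differences were -0.52 ± 0.21 against vehicle (adjusted p = 0.977 by limma) and -0.54 ± 0.19 against B20 (adjusted p = 0.518), and -0.34 and -1.01 against vehicle within slides. Cxcl5, a CXCR2 ligand, was at -2.41, -1.77, -1.93 and -2.69 with B20 and -3.49, -2.78, -2.84 and -3.80 with nintedanib, a difference of -1.03 ± 0.64 (adjusted p = 0.641 by limma).

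Against T0, the vehicle tumours had lower Cxcl9, Ccl24 and Cxcl12, and the B20 tumours had lower Cxcl12 and Ccl24 with higher Cxcl5 and Cxcl1. In vehicle against T0, 3 of 30 ligands fell and 0 rose at an adjusted p under 0.05, where 2.12% of all features fell and 2.8% rose. In B20 against T0, 2 rose and 2 fell, with 5.77% and 3.73% of all features. In nintedanib against T0, 1 passed the threshold as higher, Cxcl13, and 0 fell, with 6.81% and 4.61% of all features. Among the 28 ligands that did not depend on the nintedanib arrays to pass the filter, 0 were called there. At an unadjusted p under 0.05 by limma, 3 of them were higher and 3 lower, where 4484 and 3434 of all 28074 features were. The 3 comparisons share the T0 arrays. Single arrays moved these counts. The counts that follow take both directions together, and the shares of all features above belong to the fit of all arrays. They therefore do not tell a change in the ligands from a change in calls over all features. Without T0 replicate 4, the calls were 5 in vehicle, 7 in B20 and 8 in nintedanib against T0. In vehicle against T0 they were 5 without T0 replicate 3, 1 without T0 replicate 1 or vehicle replicate 3, and 0 without vehicle replicate 1 or 2. In B20 against T0 they were 2 without B20 replicate 2. In nintedanib against T0 they were 2 without T0 replicate 3 and 0 without T0 replicate 1 or 2 or nintedanib replicate 1, 2 or 3.

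Ccl24, an eosinophil attractant that binds CCR3 and is made by alternatively activated macrophages, was at 0.22, -0.77, -0.86 and -0.95 in T0. It was at -4.18, -4.23 and -3.01 with vehicle, -2.33, -3.37, -3.85 and -5.87 with B20 and -3.84, -2.52, -2.06 and -1.93 with nintedanib. All end-of-treatment arrays were below all T0 arrays. The difference was -3.22 ± 0.69 for vehicle (adjusted p = 0.0219 by limma), -3.26 ± 0.64 for B20 (adjusted p = 0.0112) and a 3.99-fold lower signal for nintedanib (adjusted p = 0.0602). The vehicle signal was 9.29-fold lower than in T0. B20 replicate 4 was not well above background. The gene most like Ccl24 over the 15 arrays was Retnla, a marker of alternatively activated macrophages and also of adipose tissue (Pearson r = 0.966), on arrays that also share their T0 and end-of-treatment grouping. With the offset of 50 the vehicle difference was -1.86. The vehicle call was lost without T0 replicate 1, vehicle replicate 1 or vehicle replicate 2 and in a fit of the 2 groups alone, while the B20 call held under all 19 alternatives.

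Cxcl12 was at 3.48, 3.23, 2.25 and 1.86 in T0, above every vehicle and B20 array. It fell by 1.51 ± 0.34 on the log2 scale from T0 to vehicle (adjusted p = 0.0261 by limma) and by 1.72 ± 0.32 to B20 (adjusted p = 0.00941). For nintedanib the difference from T0 was -0.85 ± 0.32 (adjusted p = 0.0973), with overlap. The second probe gave -0.80 for vehicle and -0.61 for B20. The vehicle call was lost under 7 of 18 alternatives, including each vehicle array left out in turn, and the B20 call under 0 of 19.

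Cxcl9 was at -0.90, -1.44, -2.79 and -1.91 in T0 and fell by 1.88 ± 0.39 to vehicle (adjusted p = 0.0176 by limma), with no overlap. Against T0 it differed by -0.84 ± 0.36 with B20 and -0.20 ± 0.36 with nintedanib, so the nintedanib mean lay near that of T0. The vehicle call was lost under 7 of 18 alternatives, among them the removal of each vehicle array and the authors' deposited table, where the difference was -0.92 (adjusted p = 0.0653). Ccl5 was at 1.86, 1.27, 0.85 and 2.09 in T0, and its vehicle difference of -1.32 ± 0.36 missed the threshold (adjusted p = 0.0504 by limma).

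Cxcl13 was not well above background on any T0 array, which read -7.10, -7.36, -5.78 and -6.21. On the base described above it was 6.13-fold higher with nintedanib, through whose arrays it passed the filter. Its log2 difference from T0 was 0.28 with the normexp background correction and 0.45 in the authors' deposited table. Its call against T0 is therefore not read as a test. That call was lost under 9 of 18 alternatives, among them the random slide block and the authors' deposited table. It was also lost on the removal of T0 replicate 1 or 2 or of nintedanib replicate 1, 2 or 3.

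Cxcl1 and Cxcl5, the 2 CXCR2 ligands bright enough to test, lay the other way. CXCR2 ligands attract neutrophils, and the other 2 listed, Cxcl2 and Cxcl3, were not well above background on any end-of-treatment array. Cxcl1 was at -2.84, -2.67, -1.34 and -1.30 in T0, -0.27, -1.08 and -1.18 with vehicle and -0.44, -0.30, -0.71 and -0.51 with B20. All vehicle, B20 and nintedanib arrays were above all T0 arrays, the nintedanib arrays at -0.59, -0.72, -1.11 and -1.22. Cxcl1 rose by 1.55 ± 0.35 to B20 (adjusted p = 0.0185 by limma), with 1.19 ± 0.37 to vehicle (adjusted p = 0.0825) and 1.13 ± 0.35 to nintedanib (adjusted p = 0.0516). Cxcl5 was at -7.01, -5.30, -4.60 and -3.58 in T0, where T0 replicates 1 and 2 were not well above background, and -1.20, -3.09 and -3.67 with vehicle. It rose by 2.92 ± 0.64 to B20 (adjusted p = 0.0177 by limma) and was 2.47 from T0 with vehicle (adjusted p = 0.0585) and 1.90 with nintedanib (adjusted p = 0.0725). With the offset of 50 the B20 difference of Cxcl5 was 0.96. In a fit of the 2 groups alone neither B20 call held. The Cxcl5 call was also lost without B20 replicate 2, and the Cxcl1 call without T0 replicate 1 or 2 or B20 replicate 2 or 4. Cxcl1 and Cxcl5 correlated at r = 0.923 over the 15 arrays. The neutrophil markers' summed level was 6.39 to 6.80 in T0, 7.11 to 7.24 with vehicle, 7.07 to 7.55 with B20 and 6.55 to 7.39 with nintedanib. This sum was carried mainly by Csf3r, at 6.04 to 7.21. Of the 8 neutrophil markers tested, 6 were higher than T0 with vehicle, 6 with B20 and 7 with nintedanib. Their part in the Cxcl1 and Cxcl5 differences was not tested.

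**Figure D4:**
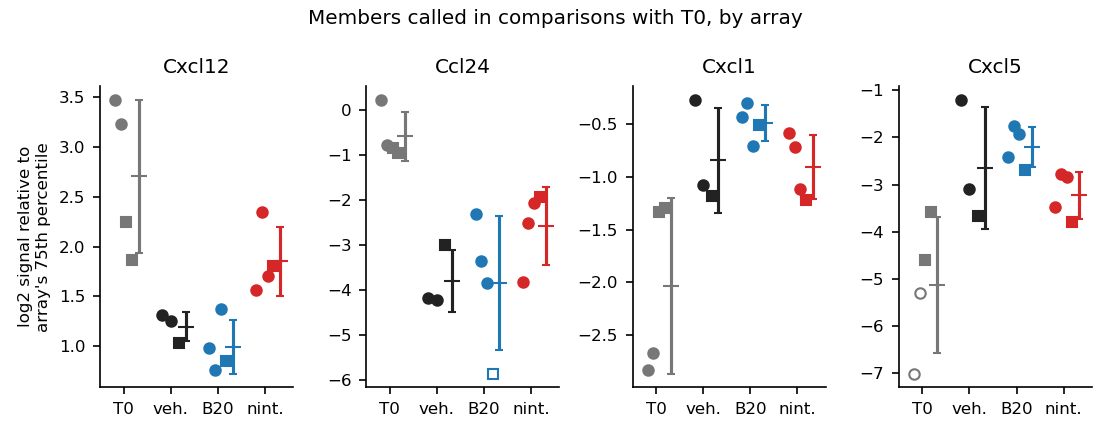
Levels of the 4 ligands of CXCR4, CCR3 and CXCR2 that were called in comparisons with T0, 1 symbol per array, open where the probe was not well above background, squares for slides 2 and 4 and circles for slides 1 and 3, with group mean and SD. The means of Cxcl12 and Ccl24 are highest in T0, and those of Cxcl1 and Cxcl5 lowest.

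Of the marker lists, that of adipocytes had the largest median difference between vehicle and T0. All 7 were called lower in vehicle than in T0, with a median of -5.59, where 2.12% of all features were lower, and their summed level was 8.61 to 10.49 in T0 and 3.40 to 5.94 with vehicle. With B20 it was 5.37 to 7.62 and with nintedanib 5.25 to 8.11. Endothelial markers were lower than T0 for 9 of 9 in vehicle, with 2 called, and fibroblast markers for 6 of 7, with 0 called. Skeletal muscle markers were lower for 6 of 6 with a median of -3.76 and 0 called, pericyte and smooth muscle markers for 5 of 5 with a median of -1.15 and 0 called, and T and NK cell markers for 9 of 11 with 1 called. The part of these cell types in the Ccl24, Cxcl12 and Cxcl9 differences was not tested.

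A further pattern lay in single arrays. T0 replicate 4 was at 2.48 for Ccl2, where the other T0 arrays were between -1.14 and -0.11, and at 1.91 for Ccl7, where they were between -1.84 and -1.30. For Ccl17, a CCR4 ligand of dendritic cells and macrophages, it was at 0.64, where the others were between -1.65 and -1.41. It was also the highest T0 array for Ccl12 (0.79), Ccl8 (4.41), Ccl6 (3.80), Ccl9 (3.70) and Cxcl10. The macrophage markers' summed level on that array was 7.00, against 6.65 to 6.90 on the other T0 arrays. This sum was carried mainly by Cd14, Itgam and Csf1r. By single markers, Adgre1, Lyz2, Cd14, C1qa, C1qb, C1qc and Fcgr1 were highest there among the T0 arrays, while Csf1r, Mrc1 and Itgam were not. C1qa was at 3.72 there, against 2.30 to 2.60, and Itgam at 4.24, against 4.47 to 5.31. Interferon response genes had a summed level of 6.85 there and of 5.29 to 5.65 on the other T0 arrays. The part of either list in these ligands' levels was not tested. Without T0 replicate 4, Ccl2, Ccl7 and Cxcl10 were called higher with nintedanib than in T0, Ccl2 by 1.36 and Cxcl10 by 1.77. That array was the highest in T0 for each of them, so leaving it out lowers their T0 mean and spread. These calls are therefore a description and not a test.

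**Figure D5:**
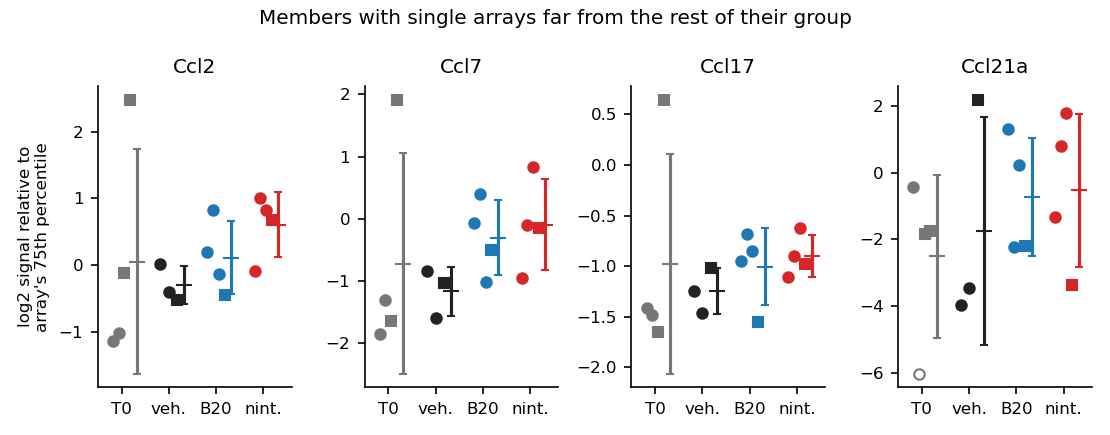
Levels of 4 ligands with arrays far from the rest of their group, 1 symbol per array, open where the probe was not well above background, squares for slides 2 and 4 and circles for slides 1 and 3, with group mean and SD. T0 replicate 4 stands above the other T0 arrays for Ccl2, Ccl7 and Ccl17, and Ccl21a spreads over several log2 units in each group.

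CCL19, CCL21 and CXCL13 organise lymphoid tissue, and CCL21 is also made by lymphatic endothelium. Ccl21a was at -0.43, -6.03, -1.85 and -1.75 in T0, -3.95, -3.46 and 2.19 with vehicle, 1.30, -2.22, 0.23 and -2.18 with B20 and -1.34, 0.80, 1.78 and -3.36 with nintedanib. Vehicle replicate 3 stood far above the other vehicle arrays, and the sign of the drug differences depended on the slide. Against vehicle, nintedanib was at 4.12 on the slide of 8 arrays and -5.55 on the slide of 3, and 1.21 ± 1.70 over both. Ccl21b was much steadier, between 2.35 and 3.48 on every array, and -0.39 ± 0.22 from vehicle with B20. The Ccl21 genes are near-identical copies, so a probe may report more than 1 of them, and the assignment to Ccl21a is uncertain. Over the 15 arrays the gene most like Ccl21a was Mmrn1, which is expressed in lymphatic endothelium (r = 0.870). The lymphatic endothelial markers' summed level was highest on vehicle replicate 3 and nintedanib replicate 3, where Ccl21a was highest in those groups, but on T0 replicate 4 and B20 replicate 2, where it was not. The sum of these markers was carried by Pdpn, at 0.59 to 1.68. Their part in the Ccl21a levels was not tested. The lymph node stroma markers were between -2.19 and -0.87 on all arrays. The 3 probes of Ccl19 did not give 1 direction, with differences of -0.19, 0.09 and 1.13 for nintedanib against vehicle.

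None of the other ligands tested was called in a comparison with vehicle or between vehicle and T0. Cx3cl1, the membrane-tethered ligand of CX3CR1, was between 3.15 and 4.26 on all arrays and within 0.06 of vehicle with both drugs. Cxcl16, the CXCR6 ligand, was within 0.29 of vehicle, and Cxcl14, an epithelial and stromal chemokine, was at 0.59 ± 0.39 with nintedanib and 0.05 ± 0.39 with B20. Xcl1, the ligand of XCR1 on cross-presenting dendritic cells, was -1.05 ± 0.41 from T0 with vehicle (adjusted p = 0.156 by limma). Ccl11, like Ccl24 a CCR3 ligand, was -0.83 ± 0.32 from T0 with vehicle, with no overlap (adjusted p = 0.145 by limma). Ccl17 was within 0.34 of vehicle with both drugs. Among epithelial ligands, Ccl27a was within 0.20 of vehicle and its 4 probes lay between -0.14 and 0.44, while Ccl28 had standard errors of 0.57 to 0.61. Cxcl17, a mucosal chemokine, was -0.63 ± 0.61 from vehicle with nintedanib, and its B20 difference had a 95% interval of -2.32 to 0.32. Both had opposite signs on the 2 slides, -1.71 and 1.95 for nintedanib.

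The remaining 6 ligands with a probe were too dim to test. Ccl20, Ccl22 and Cxcl3 were not well above background on any array. Cxcl2 and Ccl26 were well above it on 1 array each, T0 replicate 3, and Cxcl15 on 2 T0 arrays. T0 replicate 3 had the highest share of probes above background, 84.2%. Cxcl15 read -2.15 and -2.93 on T0 replicates 1 and 2 and -5.74 or less on the other 13 arrays. Cxcl11, Ccl21c, Ccl21d and Ccl27b had no matched probe.

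Of 23 chemokine receptors listed, 19 were tested. Against vehicle, 16 were higher with nintedanib and 17 with B20, with medians of 0.39 and 0.21 and 0 called. In vehicle against T0, 2 receptors fell and 0 rose, where 2.12% of all features fell and 2.8% rose: Ccr2, the monocyte receptor for CCL2, by 1.69 ± 0.32 (adjusted p = 0.0131 by limma), and Ackr1, a decoy receptor of venular endothelium and red cells, by 1.84 ± 0.39 (adjusted p = 0.0203). Without T0 replicate 1 or 2 or vehicle replicate 1 or 2, 1 receptor was called. In nintedanib against T0, Ccr2 and Ackr1 fell (4.61% of all features did), and in B20 against T0, Ackr1 and Ackr2 fell (3.73%), by the same limma test. Ccr2 was at 0.39, 0.41, 0.23 and 0.69 in T0 and at -2.08, -0.97 and -0.72 with vehicle. Cxcr3, the receptor of CXCL9 and CXCL10, was lower with vehicle than in T0 by its values, with a 95% interval of -1.65 to -0.35 (adjusted p = 0.0735), and its nintedanib difference from vehicle was 0.65 ± 0.30. Ccr8, the receptor of CCL1, was -0.18 ± 0.57 from vehicle with nintedanib. Cxcr5, the receptor of CXCL13, was not tested, with signal above background on too few arrays. Cxcr4 was at 0.71 ± 0.23 from vehicle with B20 and 0.04 ± 0.23 with nintedanib.

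Among 10 tested cytokines and factors upstream of chemokines, 0 were called against vehicle. Il1b, an inducer of CXCR2 ligands, was 1.80 ± 0.42 from vehicle with B20, with no overlap (adjusted p = 0.999 by limma), and rose by 2.66 ± 0.39 from T0 to B20 (adjusted p = 0.00439). Tnf rose from T0 by 0.98 ± 0.23 to vehicle, 0.92 ± 0.21 to B20 and 1.25 ± 0.21 to nintedanib (adjusted p = 0.0296, 0.0209 and 0.00513 by limma). Ifng, which induces CXCR3 ligands, was well above background on 4 of 4 nintedanib arrays, 1 of 4 B20 arrays, 1 of 4 T0 arrays (replicate 3) and 0 of 3 vehicle arrays. It too needed the nintedanib arrays to pass the filter, and no fold or test is given. Of 11 interferon response genes, 11 were higher than vehicle with each drug, with medians of 1.79 and 1.57, and 0 were called. Irf7, a transcription factor of the type I interferon response, differed by 2.30 ± 0.44 for nintedanib (adjusted p = 0.277) and 1.73 ± 0.44 for B20 (adjusted p = 0.999). The list's summed level was 5.26 to 6.06 with vehicle, 6.97 to 7.47 with B20 and 6.77 to 7.70 with nintedanib.

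Markers of cells that make or follow these ligands were measured beside them. Macrophage markers were higher with nintedanib than with vehicle for 10 of 10 tested, with a median of 0.24, and with B20 for 6 of 10. T and NK cell markers were higher for 8 of 11 with each drug, with medians of 0.12 and 0.18, and B and plasma cell markers for 6 of 7 with each. Their summed levels overlapped between vehicle and both drugs for T and NK cells, at 3.23 to 3.55 with vehicle, 3.41 to 4.49 with B20 and 3.01 to 4.13 with nintedanib. That sum was carried mainly by Cd4, at 1.39 to 3.85 with its highest level on B20 replicate 4, and by Nkg7 and Cd3e. Dimmer markers such as Cd3g hardly entered it. The summed levels of macrophage markers, carried mainly by Itgam, Cd14 and Csf1r, were 6.88 to 7.02, 6.96 to 7.15 and 6.99 to 7.31. B and plasma cell markers summed to -0.67 to -0.41 with vehicle, -0.67 to 0.77 with B20 and -0.32 to 0.26 with nintedanib. Ms4a1 was below background on all T0 and vehicle arrays and on all but 1 array of each drug. Adipocyte markers were higher than vehicle for 7 of 7 with each drug, with medians of 2.39 and 2.61, and skeletal muscle markers for 6 of 6 with each. None of these markers was called in either comparison, and their part in the ligands' differences was not tested.

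Over the 15 arrays, the genes whose levels were most like a ligand's were named as a description, since these arrays share their groups and 4 slides. Cxcl10 was most like Adar (r = 0.941), Bst2 (0.891) and Rsad2 (0.879), all interferon-inducible genes. Ccl5 was most like Cd2 (0.908), Cxcr6 (0.864) and Cd3g (0.851), genes of T cells, whereas Cxcl9 was most like Tef, Hoxa5 and Bcl2l2 (0.886 to 0.858). Ccl8 was most like the macrophage gene Cd209e (0.951). Ccl2 was most like Ccl7 (0.908), and Ccl6 was most like Pira2 (0.941) and then Ccl9 (0.907). Cxcl12, which was high in T0, was negatively correlated with Cxcl1 (-0.869), which was low there.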

How the data were processed

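RNA of 15 tumours was hybridised to 15 single-colour Agilent arrays (1 channel). The intensity values were deposited by the authors as scanner output of Feature Extraction 10.7.3.1, per the file headers, background-subtracted in the processed signal, with flags for spots above background. The authors' deposited table of log2 values has no stated processing. Its column medians were 6.616 to 6.627, and its columns matched normexp-corrected, quantile-normalised signals (median r = 0.99992).

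Here the log2 of the processed signal was taken minus each array's 75th percentile, spots of a probe were averaged, and control spots and outlier flags were left out. The 82 probe values with no spot left were set to the probe's mean over the other arrays, none of them a ligand's. Probes well above background on at least 3 arrays were kept, and the brightest stood for its gene. A model of 4 group means was fitted with limma 3.58.1 (R 4.3.3, package data.table at version 1.17.8), with Benjamini-Hochberg adjustment over 28074 features and a threshold of 0.05. The 15 arrays limit the precision: the median standard error over features was 0.29 for nintedanib against vehicle. The code was tested on simulated data. The random slide block for T0 comparisons had a correlation of 0.131. The deposited files lack the mean signal planned for normexp, so the median signal was used, with an offset of 50.

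The members and lists were chosen with earlier results of these data known. Named genes were those called, the 3 with the lowest p in each direction where fewer were called, and a list by role. Alternatives were other background corrections, scalings, filters, probe rules, array weights, slide and replicate blocks, smaller fits and each array left out.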

Additional observations from a re-analysis of the deposited data

Results flagged for a closer look

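In 90 groups of 4 arrays, an array stood apart from the rest of its group 6 times by Dixon's test at 95%, which chance alone flags in about 1 in 20 groups. Of these, 3 were in T0 replicate 4: Ccl17 at 0.64 (nearest other array -1.41), Ccl7 at 1.91 (nearest -1.30) and Cxcl10 at -0.38 (nearest -3.03). T0 replicate 1 was at 0.22 for Ccl24, with the next at -0.77. Ccl27a, a skin chemokine, was at 2.53 in B20 replicate 3, with the next at 2.73. Cx3cl1 was at 3.15 in nintedanib replicate 3, with the next at 3.98.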

How the results depend on the processing

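Among the named genes, 3175 values under an alternative kept their side of the threshold and either their direction or, near 0, a value within 1 standard error of the main one. Another 45 passed the threshold only there, 34 lost it, 14 changed sign by more than 1 standard error, and 2 changed sign with an unadjusted p under 0.05 in either fit. These 2 were Ccl1 in nintedanib against B20 with normexp (-0.18) and Ccl17 in B20 against T0 without T0 replicate 4 (0.51, with -0.25 as the lowest value when 1 array was left out). In the comparisons among end-of-treatment groups, 0 ligands and 0 receptors were called under every alternative run, slide block included. Calls against T0 were not stable, and the cause was not tested. The counts below stand without the share of all features called under the same setting. They therefore do not tell a change in the ligands or receptors from a change in calls over the whole array. With array weights, ligand calls were 6 in vehicle (3 in the main values), 10 in nintedanib (1) and 8 in B20 (4), and receptor calls were 5, 8 and 9 (2 in each). In fits of the 2 groups alone, which have fewer arrays, ligand calls were 0, 2 and 2 and receptor calls 0, 0 and 1. With median scaling, ligand calls in vehicle were 1, and receptor calls were 0 in nintedanib and 0 in B20. The 8-array filter gave 5 ligand calls in vehicle. Normexp, quantile normalisation and the authors' table each gave 2 ligand calls in nintedanib. For receptors in B20, the authors' table gave 4, no filter 0 and the mean of a gene's probes 1. With the random slide block, ligand calls in nintedanib were 0, and receptor calls were 1 in nintedanib and 0 in B20. Leaving out 1 array at a time gave 0 to 5, 0 to 8 and 2 to 7 ligand calls in vehicle, nintedanib and B20, and 1 to 3, 0 to 4 and 0 to 3 receptor calls. Same-numbered samples did not deviate together (21 pairs, r from -0.246 to 0.38, 6 above 0.1), so the numbers were not taken as pairs. Without Ccl1 and Cxcl13, which passed the filter through 1 group (an alternative chosen after seeing the data), ligand calls in nintedanib against T0 were 0. With the replicate block, ligand calls in nintedanib against T0 were 0 and receptor calls in B20 against T0 were 1.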
